A study of Mus musculus with 2 samples.

Results

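The 10 genes described here encode ephrin ligands and Eph receptors that pattern axon maps in the roof of the midbrain, the tectum or superior colliculus. They are the 5 ligand genes Efna2, Efna3, Efna5, Efnb1 and Efnb2 and the 5 receptor genes Epha3, Epha4, Epha7, Ephb2 and Ephb3, out of 21938 protein-coding genes. They were chosen by name and not by a rule on their open chromatin, although earlier results of these data were known. The sites counted for each gene are the DNase I peaks in its GENCODE M21 gene body with 10 kb on each side, called its domain, and those within 500 bp of an annotated transcription start site (TSS), called promoter sites. The 10 domains held 243 of the 228203 peaks of replicate 1, 125 of the 122593 peaks of replicate 2, and 82 of the 74833 regions in which a peak of each library overlapped. Such a region is called shared below.

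DNase-seq cuts nuclei with DNase I and sequences the fragment ends, so that stretches of DNA held open by regulatory proteins appear as peaks. The series has 1 group, B6NCrl mouse midbrain taken at postnatal day 0 from pooled male and female animals, with 2 biological replicates and no treated or mutant animals. Both biosamples trace to 1 donor entry, so the spread between them may be technical, and the protocol they cite is for nuclei of cultured cells and names a crosslink step. With 2 libraries of 1 group there is nothing to test between conditions, and the values below are descriptions of these libraries.

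Ephs are receptor tyrosine kinases, and ephrins are their ligands on neighbouring cells. A-type ephrins hang on the membrane by a lipid anchor and bind mainly EphA receptors, whereas B-type ephrins span the membrane and bind mainly EphB receptors; contact often makes a growing axon turn away, and signals pass into both cells. In the mouse colliculus, graded ephrin-A and EphA proteins along the anterior to posterior axis, and graded ephrin-B and EphB proteins along the medial to lateral axis, steer retinal axons to their targets.

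The sequences of 10 shared regions come first, because the results return to them: the 5 promoter regions that ranked highest among the 10 genes, both regions of highest signal upstream of Efna5, and regions in the flank or introns of Efna2, Efnb2 and Ephb2. Capitals mark matches to the short motifs that were searched on both strands, named with their background after the region counts, and to the core of the site of CTCF, a zinc finger protein found at domain boundaries and many distal sites. Bases annotated as untranslated exon are left out, so the printed stretch of a promoter can be shorter than its region. The bases are those of the RefSeq copy of GRCm38.p6, the assembly of mm10, read 5′ to 3′ on the strand of the gene.
Ephb3 promoter, chr16:21204456-21204665, + strand: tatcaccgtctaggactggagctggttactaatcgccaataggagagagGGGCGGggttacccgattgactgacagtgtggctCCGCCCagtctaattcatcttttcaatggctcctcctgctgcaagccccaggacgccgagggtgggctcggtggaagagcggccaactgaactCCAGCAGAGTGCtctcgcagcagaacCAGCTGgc
Efnb2 promoter, chr8:8661243-8661365, - strand: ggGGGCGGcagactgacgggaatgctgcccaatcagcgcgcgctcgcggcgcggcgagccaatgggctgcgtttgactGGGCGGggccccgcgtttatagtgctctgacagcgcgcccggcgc
Epha7 promoter, chr4:28812956-28813105, + strand: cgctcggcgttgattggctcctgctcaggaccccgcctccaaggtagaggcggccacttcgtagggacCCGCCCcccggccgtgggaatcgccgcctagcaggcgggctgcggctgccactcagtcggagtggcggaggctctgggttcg
Efna3 promoter, chr3:89322966-89323045, - strand: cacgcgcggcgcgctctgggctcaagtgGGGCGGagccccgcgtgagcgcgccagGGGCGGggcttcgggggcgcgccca
Efnb1 promoter, chrX:99135976-99136125, + strand: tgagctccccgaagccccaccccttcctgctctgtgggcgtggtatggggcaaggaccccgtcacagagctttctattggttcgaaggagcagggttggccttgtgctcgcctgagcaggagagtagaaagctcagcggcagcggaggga
Efna5 upstream, chr17:62882956-62883185, - strand: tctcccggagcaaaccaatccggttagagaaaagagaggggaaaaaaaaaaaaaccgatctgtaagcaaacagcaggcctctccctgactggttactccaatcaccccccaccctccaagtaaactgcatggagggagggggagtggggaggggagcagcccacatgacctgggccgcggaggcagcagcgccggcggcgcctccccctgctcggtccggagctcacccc
Efna5 further upstream, chr17:62884276-62884445, - strand: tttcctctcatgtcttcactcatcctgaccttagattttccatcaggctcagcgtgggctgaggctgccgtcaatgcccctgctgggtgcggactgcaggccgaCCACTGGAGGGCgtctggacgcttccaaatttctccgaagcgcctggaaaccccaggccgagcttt
Efna2 upstream, chr10:80175636-80175805, + strand: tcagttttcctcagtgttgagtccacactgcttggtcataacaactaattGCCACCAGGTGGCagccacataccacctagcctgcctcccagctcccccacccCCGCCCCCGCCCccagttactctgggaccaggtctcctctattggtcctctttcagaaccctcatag
Ephb2 intron 6, chr4:136678576-136678745, - strand: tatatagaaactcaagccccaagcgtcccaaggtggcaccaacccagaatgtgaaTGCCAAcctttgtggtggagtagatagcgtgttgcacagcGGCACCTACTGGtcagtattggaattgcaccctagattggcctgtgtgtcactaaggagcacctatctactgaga
Efnb2 intron 1, chr8:8647376-8647675, - strand: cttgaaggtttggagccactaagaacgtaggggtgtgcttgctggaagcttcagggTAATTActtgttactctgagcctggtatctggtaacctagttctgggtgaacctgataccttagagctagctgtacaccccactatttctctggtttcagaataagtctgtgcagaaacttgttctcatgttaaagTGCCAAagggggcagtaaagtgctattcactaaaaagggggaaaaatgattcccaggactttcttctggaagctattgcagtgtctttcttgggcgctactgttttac
In the Ephb3 promoter the capitals are 2 GC boxes (GGGCGG), 1 match to the CTCF core and 1 E-box (CAGCTG). The Efnb2 and Efna3 promoters have 2 GC boxes each, the Epha7 promoter has 1, and the Efnb1 promoter has no searched motif. The stronger of the printed Efna5 regions has none either. The further Efna5 region holds a match to the CTCF core, as do the Efna2 region, beside 2 GC boxes, and the Ephb2 region, beside an NFI motif (TTGGCA). The Efnb2 intron, of which 300 of 310 bases are printed, has a homeodomain motif (TAATTA) and an NFI motif.

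The promoters of the 10 genes were open in most cases, and 7 of the 10 had a shared region within 500 bp of a TSS (Efna3, Efnb1, Efnb2, Epha3, Epha4, Epha7 and Ephb3). The background over all protein-coding genes was 61.0%, and 84.2% over those whose domain spans 100 kb or more. Replicate 1 had a promoter peak at 10 of the 10 genes (background 68.9%, or 92.2% in domains of 100 kb or more). Replicate 2 had a promoter peak at 9 (background 62.6%, or 86.1% in the longer domains). The count of shared promoter regions is close to its background. The counts in single libraries are higher than their backgrounds over all genes but closer to those of the longer domains. They rest on 10 genes and were not tested. DNase-seq of bulk tissue does not tell a site that is open in few cells from one that is weakly open in many.

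The A-type ligands differed among themselves at their promoters. At Efna3 (chr3:89313899-89322965, minus strand), which encodes a lipid-anchored ligand that is widely present in brain, the strongest promoter peak had a signal of 117 in replicate 1 and 62 in replicate 2, and the peaks overlapped. The signal is the authors' whole number per peak, not scaled between libraries, with a median over all peaks of 44.0 in replicate 1 and 18.0 in replicate 2. At Efna2 (chr10:80179482-80190010, plus strand), whose product is graded toward the posterior colliculus, the promoter peaks had signals of 79 and 27 but lay 30 bp apart. Both libraries thus had a peak at the Efna2 TSS, with no base in common, and its nearest shared region lay 3677 bp away, closer to the TSS of 1600002K03Rik.

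Efna5 (chr17:62604184-62881317, minus strand) encodes the other posterior ligand and was the member without a promoter peak in replicate 2. Replicate 1 had 3 peaks within 500 bp of an Efna5 TSS, with a highest signal of 60, and 1543 protein-coding genes, 7.03%, likewise had a promoter peak in replicate 1 alone. A row of 4 shared regions lay just upstream instead, with midpoints 1184, 1754, 2224 and 3044 bp before the TSS of the main transcript. Their signals in replicate 1 were 70, 111, 74 and 103, and in replicate 2 they were 32, 61, 34 and 52. In both libraries the regions at 1754 and 3044 bp, whose bases are printed above, were the stronger pair of the row. A replicate 1 hotspot, the authors' wider interval of raised cutting, ran over 2588 bp, from 62881338 to 62883925. It covered the regions at 1184, 1754 and 2224 bp but not that at 3044 bp. Its −log10 q value was in the authors' strongest class, as for 75484 of the 206454 replicate 1 hotspots over the genome. No replicate 2 hotspot reached within 500 bp of an Efna5 TSS.

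The promoters of both B-type ligand genes were shared. Efnb2 (chr8:8617434-8661242, minus strand), which encodes a membrane-spanning ligand also known as a marker of arteries, had promoter signals of 134 in replicate 1 and 74 in replicate 2. At Efnb1 (chrX:99136130-99148991, plus strand), an X-linked gene, they were 121 and 50. The Efnb2 region stood higher than the Efnb1 region in both lists, at ranks 1606 and 8389 of the 74833 shared regions by mean signal percentile. The Efnb2 region also lies within 500 bp of a TSS of the transcript 4921522P10Rik, so its openness cannot be given to 1 of them.

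The A-type receptor promoters were shared at all 3 genes. Epha7 (chr4:28813131-28967499, plus strand), whose product is graded against that of the posterior ligands, had signals of 141 in replicate 1 and 70 in replicate 2, and its strongest region ranked 1621. Epha3 (chr16:63543534-63864175, minus strand), a receptor of the A-type ligands, had signals of 116 and 48. At Epha4 (chr1:77367185-77515088, minus strand), a receptor that binds ligands of both types, they were 110 and 49, in a region that also lies at a TSS of Gm28386. Epha3 and Epha4 differed by 6 units or less in each library and stood in opposite order in them, so these data set no order between both.

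The promoters of both B-type receptor genes differed from each other. Ephb3 (chr16:21204755-21223305, plus strand) had signals of 143 in replicate 1 and 85 in replicate 2, and its region ranked 84 of 74833. All 4 of its promoter regions, at start sites of different transcripts, were shared. At Ephb2 (chr4:136647539-136835988, minus strand), which acts with Ephb3 in mapping along the medial to lateral axis, the signals were 94 and 43 but the peaks lay 10 bp apart. The nearest shared Ephb2 region, with signals of 98 and 39, lay 508 bp from a TSS, just outside the window of 500 bp. Of the genes with a promoter peak in both libraries, 2 of 9 members (22.2%) had none that overlapped, against 185 of 13562 protein-coding genes (1.36%). The member share rests on Efna2 and Ephb2 alone, with peaks 30 and 10 bp apart, and was not tested. At each of these promoters the wider hotspots of both libraries overlapped.

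**Figure D1:**
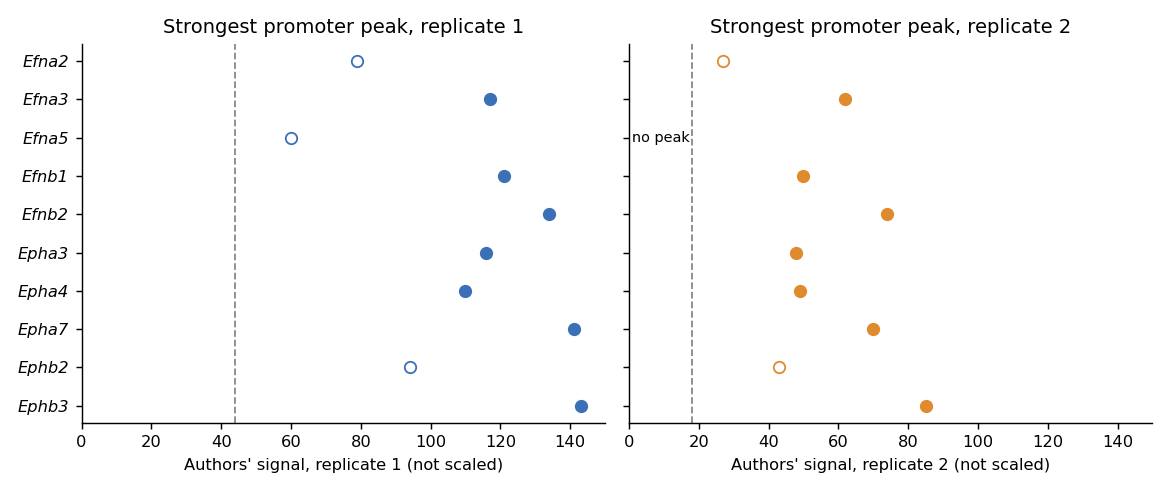
Authors' signal of the strongest peak within 500 bp of a TSS of each gene, replicate 1 on the left and replicate 2 on the right, on linear axes that are not comparable between libraries. Filled points are promoters with a region shared by both libraries, open points those without, and the dashed lines are the median signals of all peaks, 44.0 and 18.0; Ephb3 is highest in both panels and Efna5 has no peak in replicate 2.

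Beyond the start sites, every one of the 10 genes had at least 1 shared distal region, whose midpoint lies over 500 bp from any TSS of any gene. The background was 63.4% of protein-coding genes, and 93.2% of those with a domain of 100 kb or more. The 65 distal regions lay mostly inside the genes. Placed on the main transcript, 40 were in introns, 22 of them in intron 1, 6 in exons, 15 upstream and 4 downstream. By distance, 28 lay within 10 kb of the main TSS and 29 more than 50 kb away. For 5 of the 65, the nearest protein-coding TSS belonged to another gene.

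Ephb2 held the most distal regions, 20, in a domain of 208 kb. As many or more were found at 81 protein-coding genes, 0.369%, in a count not scaled by length. The median domain of all protein-coding genes was 37.4 kb, and by distal density Ephb2 was at the 92.8th percentile. Replicate 1 had 59 peaks in the Ephb2 domain and replicate 2 had 25. Of the 20 regions, 13 were intronic, 4 lay in exon 16, all within its 3′ untranslated part, 2 upstream, and 1 in the downstream flank. The 4 regions of exon 16 had signals of 70, 70, 93 and 98 in replicate 1 and of 26, 38, 27 and 24 in replicate 2. All 4 were above the median of all peaks in each library. By midpoint, 4 of the 65 distal regions of the 10 genes (6.15%) lay in an untranslated exon, against 2.54% of all distal shared regions, and the 4 are those of Ephb2.

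The strongest region counted for Ephb2, with signals of 111 and 72, lay in the downstream flank in an exon of Lactbl1, whose TSS is the nearest. By mean signal percentile the strongest within the gene body was in intron 6, at 157327 bp from the TSS, with signals of 100 and 49. In replicate 1, a pair of regions in intron 3 was higher, at 107 and 102. The bases of the intron 6 region are printed above. A region 5293 bp upstream had 81 in replicate 1, where 12 other shared Ephb2 regions were higher or as high, and 62 in replicate 2, where 1 was higher. The libraries thus placed it differently.

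Efna5 and Epha3 span more DNA than Ephb2 with fewer shared regions. Efna5, with a domain of 297 kb, had 12 shared regions, all of them distal, from 46 peaks in replicate 1 and 19 in replicate 2. Besides the 4 upstream, 6 lay in its first intron of 230 kb, 1 in intron 4 and 1 in exon 5. The strongest of intron 1, at 221326 bp from the TSS, had a signal of 111 in replicate 1 but 24 in replicate 2. Epha3, with a domain of 341 kb, had 8 shared regions from 36 and 17 peaks, or 2.35 per 100 kb, the lowest density of the 10 genes. A group of 4 lay close together in intron 3, between 117607 and 120817 bp from the TSS, with signals from 26 to 46 in replicate 1 and from 10 to 15 in replicate 2. All 4 lay below the lower quartile of the 82 regions, which was 56.0 in replicate 1 and 19 in replicate 2. A region in intron 1 of Epha3, 7007 bp from the TSS, was far stronger, at 103 and 46.

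**Figure D2:**
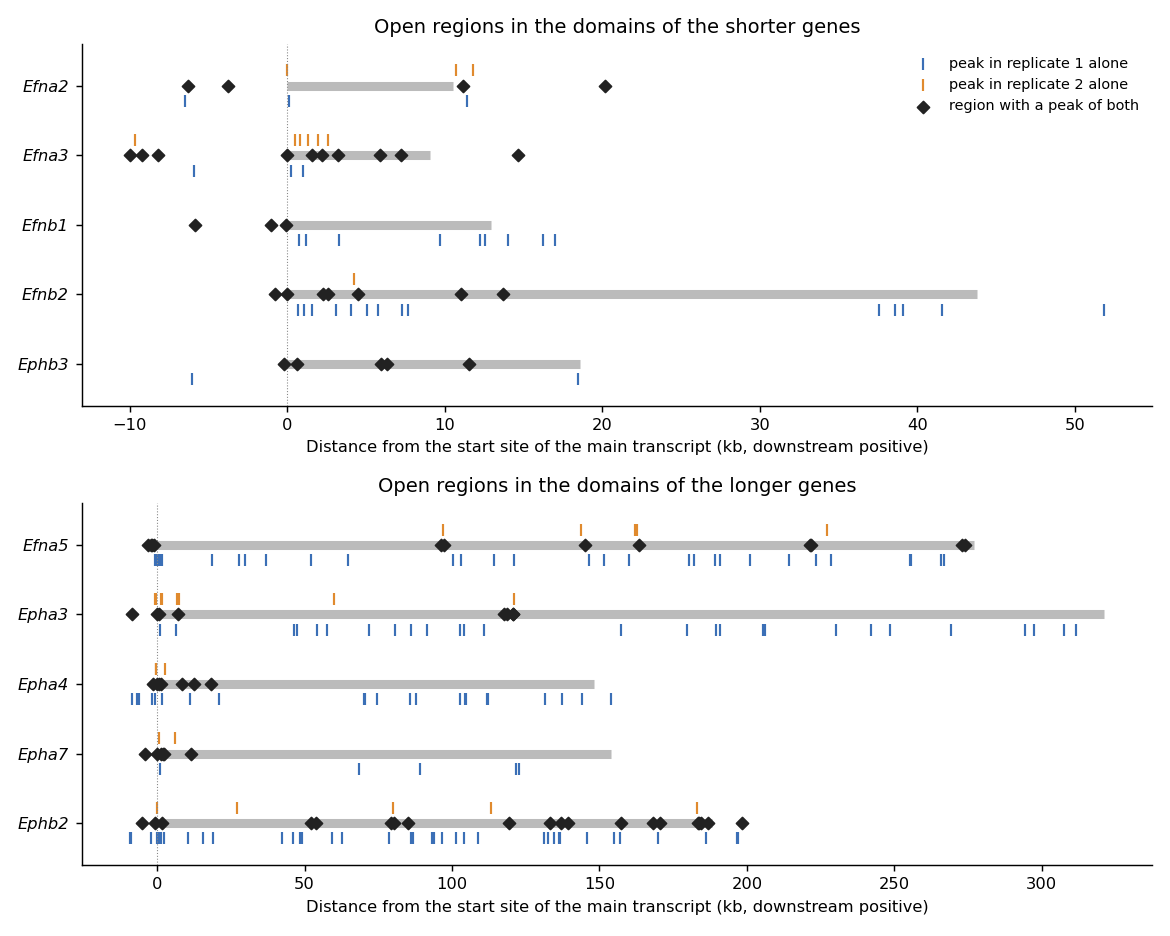
Positions of peaks in the domain of each gene, as distance in kb from the TSS of the main transcript, with the gene body as a grey bar, the shorter genes above and the longer below on a different scale. Black diamonds are regions with a peak of both libraries, and ticks are peaks of replicate 1 alone (blue, below) or replicate 2 alone (orange, above); the shared regions of Ephb2 reach from before its TSS to past its end, whereas those of Epha4 and Epha7 lie near the TSS.

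In Epha4 and Epha7 the shared regions gathered near the start of the gene. Epha4 had 7 shared regions in a domain of 168 kb, the farthest of them 18147 bp from the TSS, although replicate 1 alone had peaks along the rest of the gene. That farthest region, with signals of 99 and 24, lies at the TSS of the microRNA gene Mir6352 in intron 3. The Epha4 region 1353 bp upstream, within Gm28386, had 99 and 59, and that in intron 1, 1417 bp from the TSS, had 93 and 32. Epha7 had 6 shared regions in 174 kb, 3 of them promoter regions, and the farthest lay 11580 bp into the gene with signals of 52 and 12. An Epha7 region 1860 bp downstream of the main TSS, at a further start site, had 98 and 44. It and the third promoter region of Epha7 also lie within 500 bp of a TSS of Gm11915, so their openness cannot be given to either gene. The strongest distal ones of Epha7, 1180 bp downstream and 4140 bp upstream of the TSS, had 77 and 33, and 56 and 23.

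Efna3 was the densest of the 10, with 10 shared regions in 29.1 kb, 34.4 per 100 kb, a value at the 99.3rd percentile of protein-coding genes. In its first intron, regions 2204 and 5894 bp from the TSS had signals of 105 and 53, and of 110 and 51. Another 3 of its distal regions lie more than 8 kb upstream, nearest to the TSS of Efna4, another ephrin gene. Efna2 had 4 shared regions at 13.1 per 100 kb, 1 of them at the TSS of 1600002K03Rik with signals of 114 and 55. The strongest of the rest, in the downstream flank of Efna2, had 105 and 31.

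Ephb3 had 5 shared regions at 13.0 per 100 kb, and Efnb2 had 7 at 11.0 per 100 kb. An Efnb2 region in intron 1 of the main transcript, 2241 bp from the TSS, had signals of 113 and 56, close to those of some promoters. All 170 of its bases are annotated as exon outside the main transcript. Efnb1 had the fewest shared regions, 3, at 9.13 per 100 kb, and all 3 lay at or upstream of the TSS. The Efnb1 region 1039 bp upstream had 74 and 32, and that 5849 bp upstream had 55 and 25. Of the Ephb3 distal regions, that in intron 3 had 76 and 34 and that in intron 1 had 48 and 19. The intron 3 region is also among the 4 promoter regions of Ephb3, because its edge reaches within 500 bp of a TSS. Replicate 1 alone had 9 further peaks in and after Efnb1, and replicate 2 alone had none.

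**Figure D3:**
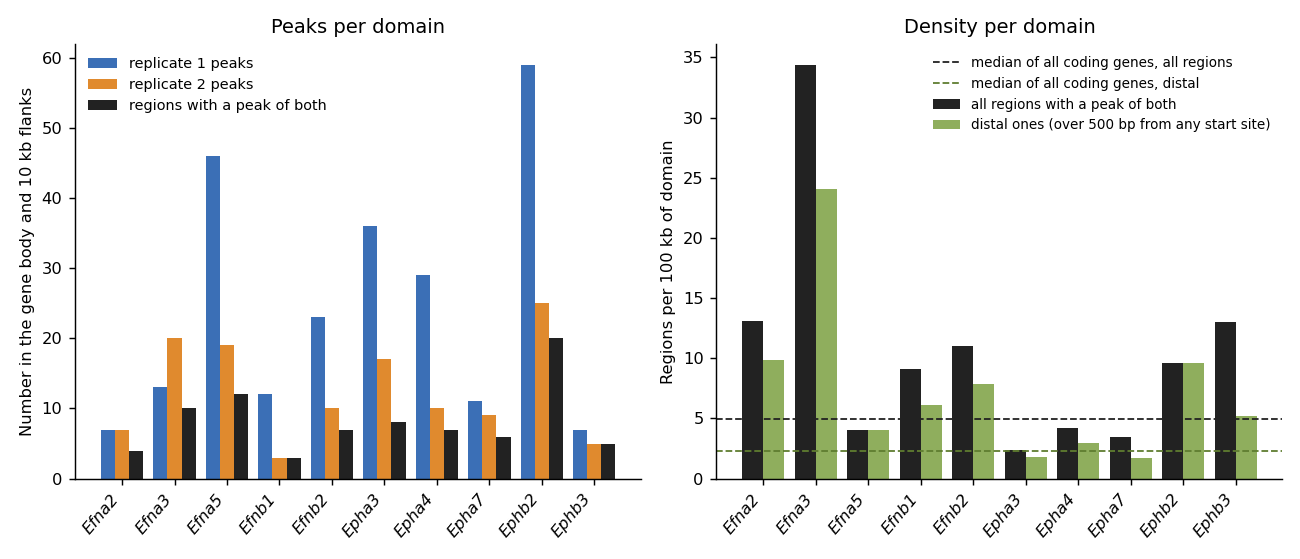
Left, the number of peaks of replicate 1, peaks of replicate 2 and shared regions in each domain. Right, shared regions per 100 kb of domain, all and distal, with dashed lines at the medians over all protein-coding genes, 4.99 and 2.28; Ephb2 has the highest counts on the left, and Efna3 the highest density on the right.

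Over the 10 genes the median density was 9.36 shared regions per 100 kb, against 4.99 over all protein-coding genes, and for distal regions 5.64 against 2.28. Over all genes the median was 5.73 in domains under 100 kb and 3.45 in longer ones. The 5 ligand genes, mostly short, had a median of 11.0 per 100 kb, and the 5 receptor genes, mostly long, had 4.17. Among the ligands the long Efna5 was lowest, at 4.04, and among the receptors Ephb3 and Ephb2 were highest, at 13.0 and 9.59. Ephb2 was at the 92.8th percentile of protein-coding genes by distal density, and Epha7 at the 44.5th.

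The libraries overlapped in the 10 domains about as they did over the genome. Of the 125 replicate 2 peaks, 85 overlapped a replicate 1 peak, 68.0% (95% Wilson interval 59.4 to 75.5, which covers counting error only), against 64.6% over the genome. Of the 243 replicate 1 peaks, 84 overlapped, 34.6% (28.9 to 40.7), against 33.5%. Merging gave 269 regions, of which 154 had a peak of replicate 1 alone and 33 of replicate 2 alone. By gene, the share of replicate 2 peaks found in replicate 1 went from 47.1% of 17 at Epha3 to 100% of 5 at Ephb3 and of 3 at Efnb1, with intervals that overlap. The peaks found in 1 library alone had a lower median signal, 44.0 against 77.0 for overlapping peaks in replicate 1, and 17.5 against 25 in replicate 2. The strongest of them away from start sites were a replicate 1 peak in intron 2 of Epha3, with a signal of 87, and a pair of replicate 1 peaks in introns 1 and 3 of Ephb2, each with 82. Of the wider hotspots, the domains held 219 in replicate 1 and 111 in replicate 2, and 81.1% of the latter overlapped a replicate 1 hotspot, against 72.0% over the genome.

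Replicate 1 had more peaks at 8 of the 10 genes. Efna2 had 7 in each library, and Efna3 had 13 in replicate 1 and 20 in replicate 2. With the replicate 1 list shortened to the 122593 peaks of highest signal, the length of the other list, the 10 domains held 165 replicate 1 peaks and 125 replicate 2 peaks, a ratio of 1.32. At full length the ratio was 1.94, beside 1.86 over the genome. In the lists of equal length Epha4 had 21 and 10 peaks and Ephb2 had 48 and 25, while Efna3 had 12 and 20. The genes thus differed in direction, and with 1 library on each side no error can be given for a ratio. In lists of hotspots of equal length the ratio was 1.01.

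Over the 82 shared regions Spearman's rho between the signals of both libraries was 0.716, and over the 65 distal ones it was 0.609, beside 0.772 and 0.660 for all shared and all distal regions of the genome. These are correlations across regions of the same libraries, given with no test. The distal regions of the 10 genes had a median signal of 74.0 in replicate 1 and 24.0 in replicate 2, near the 67.0 and 22 of all distal shared regions. Of the 82 regions, 14 lay at a promoter of the 10 genes, 4 of them also at a start site of another gene, and 5 more lay at a start site of another gene alone. Of the 65 distal ones, 2 reach into such a window with their edge.

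**Figure D4:**
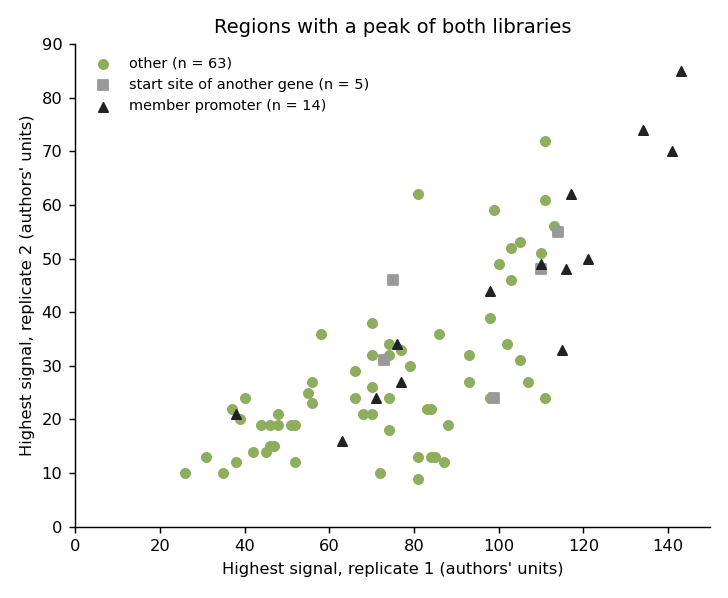
Highest signal of each of the 82 shared regions in replicate 1 (x axis) and replicate 2 (y axis), in the authors' units, which are not scaled between libraries. Black triangles are promoter regions of the 10 genes, grey squares regions at a start site of another gene alone, and green circles all others; the 3 points at the upper right are the promoters of Ephb3, Epha7 and Efnb2.

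The distal regions were searched on each strand for 13 short motifs, in a window of 150 bp centred on the region, beside the same search in all 52518 distal shared regions. The NFI motif TTGGCA was in 13 of the 65 regions (95% Wilson interval 12.1% to 31.3%), against 13.9% of all. E-boxes, the sites of basic helix-loop-helix proteins, were in 16.9% as CAGCTG and 18.5% as CAGATG, against 14.1% and 15.2%. The homeodomain motif TAATTA, read by Engrailed and Pax7 among others, was in 4.62%, against 3.98%. The Sox motif ACAATG was in 1.54% (0.272 to 8.21), against 7.65%, and the Otx motif TAATCC in 1.54%, against 4.55%. Each of these intervals includes the background.

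The other motifs were rare. The RFX motif GTTGCC was in 6.15% against 11.4% of all regions, the GC box GGGCGG in 9.23% against 6.97%, the Gata motif AGATAA in 4.62% against 5.41%, and the AP-1 motif TGANTCA in 3.08% against 4.64%. The POU octamer ATGCAAAT, the CRE motif TGACGTCA and the Fox motif TGTTTAC were in 0 of the 65, which allows a share of up to 4.62% as 3 counts of 65 (the Wilson upper bound is 5.58%), against 1.06%, 0.356% and 1.85%. The median GC content of the windows was 55.3%, against 50.7% of all, and its part in these shares was not tested. The core of the CTCF site, 12 letters with at most 1 mismatch, was added after the printed sequences had been seen. It was in 15 of the 65 (23.1%, 14.5 to 34.6), against 27.7%, and in 8 of the 21 that lie in the strongest 25% of all distal regions (38.1%), against 47.2%. Of the 65 regions, 20 held no searched motif. The homeodomain match printed for the Efnb2 intron lies outside the 150 bp searched and is not in these counts.

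By gene, Ephb2 held 7 of the 13 regions with the NFI motif, 6 of the 11 with CAGCTG and 6 of the 15 with the CTCF core, with 20 of the 65 regions. Efna5, with 12 regions, held 2 of the 3 with the homeodomain motif, and Efna3, with 7, held 3 of the 4 with the RFX motif. At the 17 shared regions of the 10 domains with a midpoint within 500 bp of a TSS, the GC box was in 35.3% (17.3 to 58.7), against 42.7% of 22315 such regions. There the NFI motif was in 11.8%, against 6.70%. A match is a run of letters, and whether a protein was bound there was not measured.

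**Figure D5:**
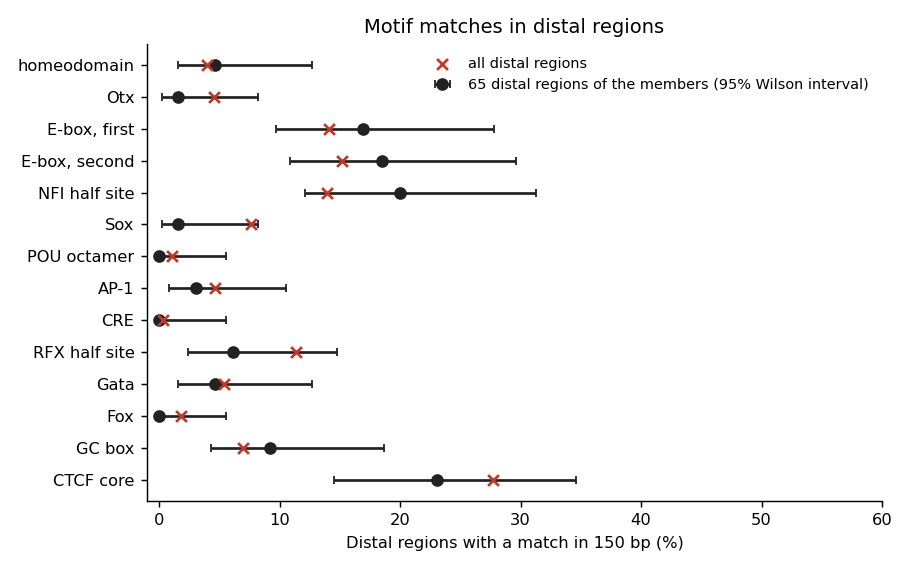
Share of distal shared regions with a match to each motif in a window of 150 bp (x axis, percent), for the 65 regions of the 10 genes (black, with 95% Wilson intervals) and for all 52518 (red crosses). Every interval includes the value of all regions; the CTCF core, added after the sequences had been seen, has the highest share in both sets.

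Among the 12 other Eph and ephrin genes, 12 had a promoter peak in replicate 1 and 11 in replicate 2 (backgrounds 68.9% and 62.6%). A shared promoter region was found at 10 of the 12 (83.3%), against a background of 61.0%. The exceptions were Epha2, with a promoter signal of 77 in replicate 1 and no peak in replicate 2, and Epha10, with 40 and 22 in peaks that did not overlap. Their median density was 9.22 shared regions per 100 kb, next to 9.36 for the 10 genes. The densest were Efnb3, at 38.3, and Efna1 and Efna4, at 27.2 and 24.4, which lie on chromosome 3 on either side of Efna3. The Efna3 and Efna4 domains overlap, and 3 of the 6 shared regions of Efna4 are also among the 10 of Efna3. The densities of both genes thus rest in part on the same regions. Of 17 genes whose products act with Ephs and ephrins, all 17 had a shared promoter region. These genes are mostly long, with a median domain of 211 kb, and the background in domains of 100 kb or more was 84.2%. Their median density was 4.96, and the highest were Fyn (7.85), a Src family kinase, Ngfr (7.71), a receptor that pairs with ephrin-A in axons, and Ptpro (7.36), a phosphatase of Eph receptors.

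The tissue label was checked at promoters of marker genes. Shared promoter regions were found at 5 of 5 pan-neuronal markers, 4 of 4 of radial glia and 4 of 8 of the midbrain (En1, En2, Meis2 and Otx2, but not Pax7, Lmx1b, Foxa2 or Gata3). They were found at 2 of 3 markers of the oligodendrocyte lineage and at 0 of 4 of microglia, 0 of 3 of endothelium, 0 of 3 of forebrain, 0 of 3 posterior Hox genes and 0 of 3 of liver. Read depth is unknown, and the replicate 1 list was 1.86 times as long as that of replicate 2.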

How the data were processed

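DNase-seq was done on midbrain of newborn mice in 1 group of 2 biological replicates. The authors deposited a peak list and a hotspot list per library on mm10; per the text deposited beside the files, each list came from the filtered alignment of 1 replicate. The aligner, the peak caller and its thresholds were not given in the sources used here. The signal of each 150 bp peak is a whole number deposited by the authors, with no definition given and no scaling between libraries. Hotspots carry the −log10 of a q value, deposited by the authors, with 100 as the strongest class, and a deposited display score that was not used. No read totals were given, so depth is unknown.

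Peaks on chromosomes 1 to 19, X and Y were used, without 215 and 221 peaks on other sequences and without 22 and 24 that repeat a position. Overlapping or touching peaks were merged, and a region with a peak of each library is shared. Genes were taken from GENCODE M21, and all 10 were matched by symbol. A domain adds 10 kb to either end of the gene body, and distal means a midpoint over 500 bp from any TSS. Sequences are from RefSeq GRCm38.p6, on which 0 intervals ran past a chromosome end. The text names all 10 genes, each one's strongest shared promoter region and 2 strongest distal regions by mean signal percentile, further regions chosen after their values were seen, and, of 2 lists of related genes, each gene without a shared promoter region and the 3 densest. The genes and lists were chosen with earlier results of these data known. Shares carry 95% Wilson intervals. The counting was tested on simulated intervals. Tools were Python 3.11.15, pandas 2.3.3, numpy 2.4.6, scipy 1.17.1, pysam 0.24.0 and matplotlib 3.10.9. The alternatives were other overlaps, list lengths, promoter and motif windows, flanks, hotspots, and each library alone.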

Additional observations from a re-analysis of the deposited data

How the results depend on the processing

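The number of genes with a shared promoter region was 7 at reciprocal overlap of 50%, in the stronger part of each list, in lists of equal length, in a window of 100 bp and at the 5′ end of the gene only. It was 8 in a window of 1000 bp, where Ephb2 was added, and 10 with hotspots. That last count includes Efna5, where a merged interval reaches the window although no replicate 2 hotspot does. From 1 library alone it was 9 to 10. The 82 shared regions became 141 with a flank of 50 kb and 116 to 238 from 1 library alone, and the 65 distal ones 92 to 207 from 1 library alone; replicate 2 alone gave the lower number each time. The share of replicate 2 peaks found in replicate 1, 68.0%, was 56.8% at reciprocal overlap of 50% and 81.1% with hotspots. The ratio of replicate 1 to replicate 2 peaks, 1.32, was 1.94 at full list length and 1.01 with hotspots of equal length; the cause was not tested. The other alternatives left the totals over the 10 genes within 1.5 times their value, but in the stronger part of each list Epha3 went from 8 to 3 shared regions and Efnb2 from 7 to 4. Searching whole regions in place of 150 bp moved 6 motif shares by over 1.5 times: homeodomain to 9.23% (5.22% of all distal regions), Otx to 4.62% (5.79%), Sox to 3.08% (9.54%), RFX to 10.8% (12.9%), Gata to 7.69% (7.2%) and POU to 1.54% (1.38%). No paired analysis was possible because the series has 1 group. With 2 libraries and no read totals, a site seen in 1 library may be a site below the reach of the other, and no difference between libraries has an error.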
